A study of Mus musculus with 6 samples.

Results

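The T cell receptor beta locus of the mouse was examined in follicular helper T (Tfh) cells, gene segment by gene segment. Its members were all genes whose symbol begins with Trbv, Trbd, Trbj or Trbc in the GENCODE M21 annotation of the genome build GRCm38, and 53 of the 53379 genes in the count tables met that rule. They comprised 35 variable (Trbv) genes, of which 13 are annotated as pseudogenes, 2 diversity (Trbd) segments, 14 joining (Trbj) segments and 2 constant (Trbc) genes, and they lie at chr6:40891229-41558452.

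RNA was sequenced from splenic Tfh cells of 6 female mice aged 6 to 8 weeks, sorted as live TCRβ+CD4+CXCR5+PD1+ cells 7 days after immunization with the hapten conjugate NP-CGG in complete Freund's adjuvant. Prdm1-CKO mice (n = 3) carry Prdm1 fl/fl with a Cre transgene under the CD11c promoter, so the gene, which encodes the transcriptional repressor BLIMP-1, is deleted in dendritic cells and not by design in the T cells that were sequenced. CTL mice (n = 3) were either Prdm1 fl/fl without Cre or Prdm1+/+ with CD11c-Cre, and the labels do not say which mouse had which genotype. The labels call the first group Blimp1 KO in one field and Blimp1 KD in another. As the sort itself required TCRβ protein on the surface, expression of the constant genes was a condition of entry.

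A T cell builds its beta chain by joining 1 Trbv, 1 Trbd and 1 Trbj segment, after which the joined exon is spliced to Trbc1 or Trbc2. The Trbd1, Trbj1 and Trbc1 elements lie together upstream of the Trbd2, Trbj2 and Trbc2 elements, and Trbv31 lies downstream of both clusters on the opposite strand. Each T cell therefore carries mostly a single Trbv gene in its mature message, and the share of Trbv reads held by a gene approximates how a population uses its repertoire. The files hold counts per gene, so V, J and C use could be read separately but not paired.

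The libraries held 7147601 to 16973392 counts, and 0.182% to 0.215% of them fell on Trb genes. The Trb counts numbered 27605, 15655 and 15392 for the CTL animals (mice 1 to 3) and 31555, 18720 and 27304 for the Prdm1-CKO animals (mice 1 to 3). Levels are given as CPM, counts relative to library size, with edgeR's scaling by the trimmed mean of M-values (TMM). The Tfh markers Cxcr5, Pdcd1, Bcl6 and Icos were present in every mouse, at a summed level of 1219 to 1833 CPM for 9 markers. Prdm1 was at 28.9, 29.97 and 27.5 CPM in CTL and at 30.2, 30.8 and 30.9 CPM in Prdm1-CKO mice, which does not check the label because the deletion is in other cells. CTL mouse 2 stood apart, with a mean correlation of 0.875 with the other mice against 0.923 to 0.944 for the rest. The summed level of 7 gamma-delta T cell genes was low in both groups, at 12.4 to 17.8 CPM in CTL and 9.25 to 21.2 CPM in Prdm1-CKO mice. Macrophage markers were present, at a sum of 2195 to 4737 CPM in CTL and 3831 to 4651 CPM in Prdm1-CKO mice for 9 genes. Most of that sum is Lyz2 and Csf1r, and CTL mouse 2 had only 2.84 CPM of Adgre1 and 2.84 CPM of C1qa.

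Of the 53 Trb genes, 45 were detected, with a count in one mouse or more. The 8 genes without a count were all Trbv pseudogenes (Trbv6 to Trbv11, Trbv27 and Trbv28), and 3 counts in a library, which is what a count of 0 allows, corresponds to 0.169 to 0.444 CPM here. For counting error alone this bounds the level of 7 of them, while Trbv8 lies within exons of the noncoding gene AC153851.1, has no unique 25-base stretch and is not bounded by its count of 0. Constant genes took 59.8% to 66.4% of the Trb counts in a mouse, Trbv genes 24.7% to 28.7%, Trbj segments 8.37% to 10.9% and Trbd segments 0.498% to 0.735%.

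The Trbv genes differ in the end that is joined to a Trbd segment. The last 45 bases of 14 of them are shown 5′ to 3′ on the plus strand from the GENCODE M21 transcripts. These are the 10 most used genes and the Trbv pseudogene with the highest count (Trbv24). With them are the 3 tested Trbv genes with the largest log2 fold changes between groups in either direction (Trbv29, Trbv4 and Trbv30). Capitals mark the cysteine codon (TGT or TGC, after letters for tyrosine, phenylalanine or leucine) with which the hypervariable CDR3 loop opens. By its letters, without use of the reading frame, it was found within the last 30 bases of all 22 Trbv genes not annotated as pseudogenes and of 10 of the 13 pseudogenes.
Trbv3 (chr6:41048784-41048828): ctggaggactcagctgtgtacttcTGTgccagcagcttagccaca
Trbv13-2 (chr6:41121788-41121832): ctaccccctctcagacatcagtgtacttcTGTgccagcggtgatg
Trbv1 (chr6:40891841-40891885): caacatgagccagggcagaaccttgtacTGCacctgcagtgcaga
Trbv12-2 (chr6:41119320-41119364): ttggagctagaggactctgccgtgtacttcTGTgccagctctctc
Trbv19 (chr6:41179004-41179048): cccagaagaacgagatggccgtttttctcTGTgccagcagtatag
Trbv16 (chr6:41152186-41152230): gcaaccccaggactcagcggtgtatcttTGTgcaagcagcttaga
Trbv15 (chr6:41141614-41141658): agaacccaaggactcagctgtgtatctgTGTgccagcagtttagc
Trbv2 (chr6:41047951-41047995): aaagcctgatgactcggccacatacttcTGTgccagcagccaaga
Trbv13-1 (chr6:41116424-41116468): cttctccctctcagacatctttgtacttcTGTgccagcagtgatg
Trbv20 (chr6:41188933-41188977): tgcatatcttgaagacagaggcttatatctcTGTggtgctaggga
Trbv29 (chr6:41271837-41271881): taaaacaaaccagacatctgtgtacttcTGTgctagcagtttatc
Trbv4 (chr6:41059842-41059886): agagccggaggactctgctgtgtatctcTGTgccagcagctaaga
Trbv30 (chr6:41281946-41281990): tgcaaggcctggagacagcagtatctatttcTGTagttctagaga
Trbv24 (chr6:41218513-41218557): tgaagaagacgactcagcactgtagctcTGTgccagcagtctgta
In these 14 genes the codon begins 14 to 21 bases from the end of the annotated transcript, farthest in Trbv3 and nearest in Trbv20 and Trbv30. How much of that germline sequence enters CDR3 was not tested.

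Trbv3 was the gene most used by count. It held 12.95%, 11.2% and 13.4% of the Trbv counts in CTL mice 1 to 3 and 12.8%, 10.4% and 11.8% in Prdm1-CKO mice 1 to 3. Trbv13-2 followed with 11.1%, 12.2% and 9.91% in CTL and 11.8%, 10.9% and 11.5% in Prdm1-CKO mice, and Trbv1 with 8.37%, 10.9% and 7.47% in CTL and 8.02%, 12.3% and 10.7% in Prdm1-CKO mice. These 3 genes exchanged ranks between mice, Trbv3 leading in 4 mice, Trbv13-2 in CTL mouse 2 and Trbv1 in Prdm1-CKO mouse 2, so their order lay within the spread between animals.

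The next 7 genes each held a smaller mean share over the 6 mice, although single mice departed from that order, with Trbv16 second in CTL mouse 3 and Trbv19 above Trbv1 in CTL mice 1 and 3 and Prdm1-CKO mouse 1. Trbv12-2 took 7.70%, 10.7% and 7.86% in CTL and 9.81%, 9.68% and 7.44% in Prdm1-CKO mice. Trbv19 took 9.78%, 7.58% and 9.02% in CTL and 9.01%, 6.78% and 8.02% in Prdm1-CKO mice. Trbv16 ranged most widely among the CTL mice, at 6.49%, 7.93% and 10.8%, against 7.96%, 6.56% and 8.96% in Prdm1-CKO mice. In these genes the groups overlapped. Trbv15 was at 5.68%, 7.40% and 4.84% in CTL and 4.86%, 5.35% and 5.27% in Prdm1-CKO mice. Trbv2 was at 4.27%, 5.91% and 5.30% in CTL and 5.52%, 4.35% and 5.24% in Prdm1-CKO mice. The share of Trbv13-1 was 5.18%, 4.29% and 6.67% in CTL and 3.13%, 6.15% and 5.02% in Prdm1-CKO mice. Each of these also overlapped between groups. Trbv20 held 4.41%, 3.53% and 3.88% in CTL and 4.40%, 6.19% and 4.90% in Prdm1-CKO mice, where the lowest Prdm1-CKO mouse fell just under the highest CTL mouse.

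**Figure D1:**
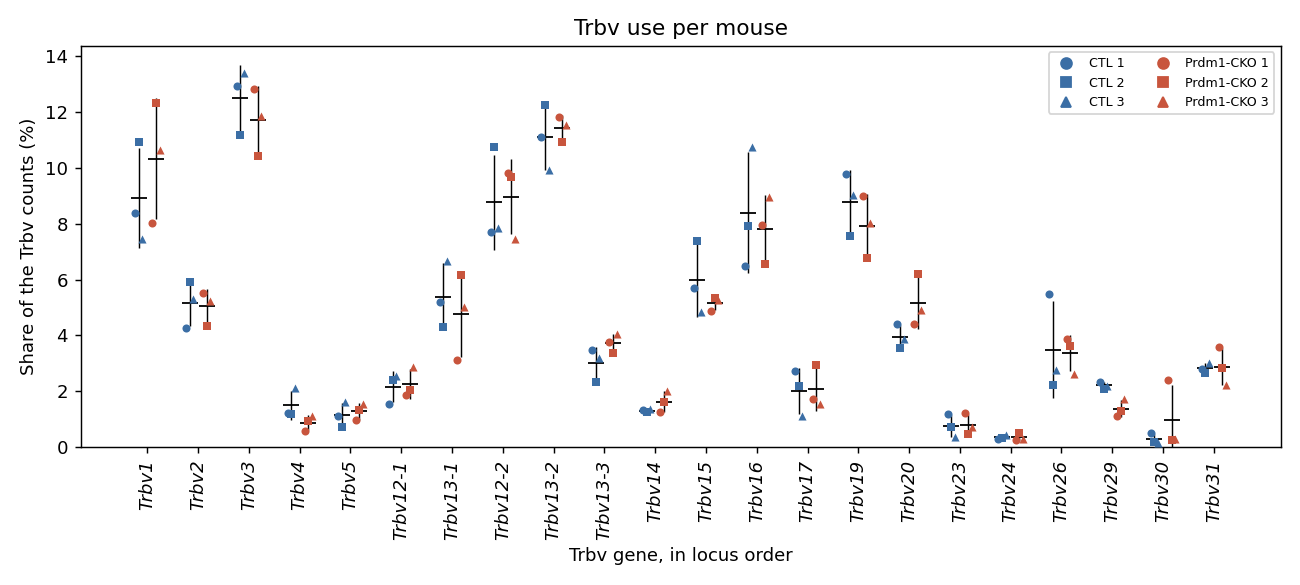
Share of the Trbv counts (%, y axis) held by the 22 most used Trbv genes in locus order (x axis), with 1 point per mouse, a horizontal tick for each group's mean and a bar of 1 SD (n = 3). Trbv3, Trbv13-2 and Trbv1 are highest in both groups, and the point of Prdm1-CKO mouse 1 for Trbv30 at 2.41% lies apart from the other 5 mice.

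The 10 genes together made up 76.0% to 81.7% of the Trbv counts in every mouse. Below them, 12 genes lay between a mean share of 0.345% (Trbv24) and 3.43% (Trbv26), and 5 genes (Trbv21, Trbv12-3, Trbv22, Trbv25 and Trbv18) had means of at most 0.0218%. The 5 pseudogenes with a count amounted to 14 to 29 counts per mouse, or 0.300% to 0.628% of the Trbv counts, most of it on Trbv24. Annotated pseudogenes thus contributed little to Trbv use.

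Genes of different length were compared per base of annotated exon. On that scale Trbv13-2 led with a mean of 13.2% of the summed per-length level, ahead of Trbv3 at 10.6%, Trbv1 at 9.21% and Trbv12-2 at 9.20%. Trbv19 moved from rank 5 to rank 7 and Trbv2 from rank 8 to rank 12, since their annotated exons are long. The ranks by count and per length were otherwise close, with a Spearman's rho of 0.98 over the 22 Trbv genes that passed the filter on low counts, and both rest on the same libraries. Position in the locus was only loosely related to use, with a rho of −0.39 between the start coordinate and the per-length share over the same 22 genes.

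How well a 25-base read can be assigned differs between genes. Against all transcripts of the annotation, every 25-base stretch was unique in most Trbv genes, including Trbv1, Trbv3 and Trbv29. For the close relatives Trbv13-1, Trbv13-2 and Trbv13-3 the unique share was 94.2%, 81.6% and 80.4%, and for Trbv12-1 and Trbv12-2 it was 92.9% and 86.4%. Trbv4 and Trbv5 share exons with the noncoding gene 5830405F06Rik on the same strand, leaving 26.0% and 20.9% of their stretches unique, so their counts are uncertain. That noncoding gene was itself at 0.411 to 1.54 CPM. Trbv13-2 and Trbv13-3 were identical at 91.4% of their last 280 bases, and Trbv12-1 and Trbv12-2 at 88.9%.

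Evenness asks whether a few Trbv genes dominate a mouse. Measured as Shannon entropy over its maximum for the 27 Trbv genes with a count, where 1 is equal use, it was 0.848, 0.826 and 0.839 in CTL and 0.841, 0.842 and 0.843 in Prdm1-CKO mice. The means were 0.838 ± 0.011 and 0.842 ± 0.00081 (SD, n = 3 each). The narrow Prdm1-CKO spread depended on Trbv30 in Prdm1-CKO mouse 1, since without that gene the values were 0.853, 0.833 and 0.846 in CTL and 0.836, 0.849 and 0.849 in Prdm1-CKO mice, with means of 0.844 ± 0.0098 and 0.845 ± 0.0073 (SD, n = 3 each). Both with and without it the Prdm1-CKO values lay inside the range of the CTL values. The inverse Simpson number, the count of equally used genes that would give the same concentration, was 13.8, 12.7 and 13.3 in CTL and 13.3, 13.5 and 13.5 in Prdm1-CKO mice. No test was applied to these scores, as 3 mice against 3 cannot go below p = 0.10 in an exact permutation test.

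Mice were also compared pair by pair in their whole Trbv profile. The Jensen-Shannon distance, 0 for identical and 1 for disjoint use, was 0.127 to 0.130 between CTL mice, 0.0996 to 0.152 between Prdm1-CKO mice and 0.096 to 0.160 between mice of different groups. The means were 0.129 over 3 pairs, 0.128 over 3 pairs and 0.123 over 9 pairs. Mice of different groups were thus no farther apart in Trbv shares than mice of the same group, and the pairs share mice. The paper cites earlier work in which the TCRβ repertoire of Tfh cells in Prdm1-CKO mice differed from that of controls. Counts per gene hold no CDR3 sequences or clones, so they do not address that difference. The closest pair was CTL mouse 3 with Prdm1-CKO mouse 3 and the farthest was CTL mouse 3 with Prdm1-CKO mouse 1. Across the 27 genes the Trbv shares of any 2 mice correlated with a Pearson's r of 0.903 to 0.969, as a description, since genes are not replicates.

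**Figure D2:**
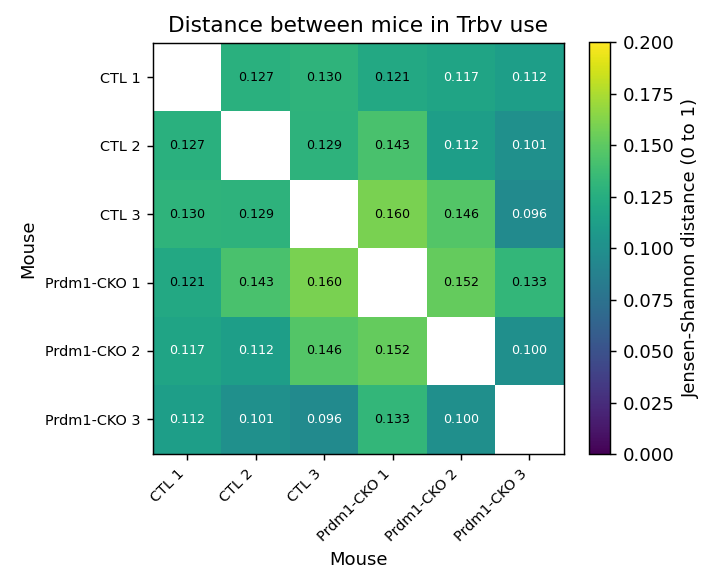
Jensen-Shannon distance (0 to 1, colour and printed value) between the Trbv shares of each pair of the 6 mice, CTL first and Prdm1-CKO after. Distances within CTL (0.127 to 0.130) lie inside the wider span of those between groups (0.096 to 0.160), and Prdm1-CKO mouse 1 has the highest mean distance to the others, 0.142.

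Trbv30 stood out in a single animal and was singled out after its values were seen. It had 38, 8 and 7 counts in CTL mice 1 to 3 and 209, 11 and 21 in the Prdm1-CKO group. As shares of the Trbv counts these were 0.496%, 0.178% and 0.160% in CTL and 2.41%, 0.238% and 0.285% in Prdm1-CKO mice, with a 95% Wilson interval of 2.10% to 2.75% in Prdm1-CKO mouse 1 that covers counting error only. The gene ranked 14 among the Trbv genes of that mouse and 21 or 22 in the other 5. In CPM it was at 2.60, 0.948 and 1.04 in CTL and 11.8, 1.12 and 1.44 in Prdm1-CKO mice (log2 fold change 1.62 ± 0.98 SE, adjusted p = 0.996, edgeR). Without Prdm1-CKO mouse 1 it was −0.26. Leaving Trbv30 out brought the mean distance of Prdm1-CKO mouse 1 to the other mice from 0.142 to 0.114, inside the 0.102 to 0.126 of the others.

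The comparison of Prdm1-CKO with CTL mice asks whether deletion of Prdm1 in dendritic cells went with a different level of any beta locus gene in Tfh cells. The edgeR quasi-likelihood test was run over 14555 genes, among them 40 Trb genes: 22 Trbv, both Trbd, all 14 Trbj and both Trbc. None of the 40 passed an adjusted p of 0.05, and neither did any other gene (0% of all genes tested). DESeq2's Wald test called 0 of the 40 and 5 genes in all (0.0344%). At an unadjusted p under 0.05, no Trb gene was higher (background 0.928% of all genes tested) and 1 was lower (background 1.42%), which was Trbv29. Without CTL mouse 2, 4 Trb genes were lower at that threshold (background 0.879%), namely Trbv4, Trbv19, Trbv29 and Trbj2-5.

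Trbv29 had 12.3, 11.1 and 14.2 CPM in CTL mice 1 to 3 and 5.47, 5.999 and 8.70 CPM in Prdm1-CKO mice 1 to 3. The highest Prdm1-CKO mouse was below the lowest CTL mouse. The log2 fold change was −0.90 ± 0.34 (SE), with an unadjusted p of 0.0292 and an adjusted p of 0.996 (edgeR), so the difference did not hold after correction. With each mouse left out in turn the unadjusted p ranged from 0.0176 to 0.105, and it was above 0.05 without CTL mouse 1, CTL mouse 3, Prdm1-CKO mouse 1 or Prdm1-CKO mouse 2. Its share of the Trbv counts was 2.34%, 2.09% and 2.19% in CTL and 1.12%, 1.28% and 1.72% in Prdm1-CKO mice, or 2.21% ± 0.125 and 1.37% ± 0.315 (SD, n = 3 each). Along with Trbv13 genes and Trbv1, Trbv29 is a gene that the beta chains of invariant NKT cells use. Trav11, which supplies their alpha chain, was at 2.53, 1.54 and 1.04 CPM in CTL and 2.03, 1.22 and 2.60 CPM in Prdm1-CKO mice, and Zbtb16, their defining transcription factor, was at 11.8, 3.67 and 10.2 CPM and at 6.82, 9.96 and 8.42 CPM. Both overlapped between groups, as did Il2rb and Klrb1c of the same 5-gene list. Slamf1, the last of them, was at 86.7, 101 and 98.4 CPM in CTL and 71.96, 80.8 and 79.1 CPM in Prdm1-CKO mice, without overlap. Of all tested genes, 3.86% likewise had every Prdm1-CKO mouse below every CTL mouse. Slamf1 is not particular to NKT cells. The paper stained its protein SLAM on Tfh cells and found no group difference in the percentage of positive cells. The 5 genes, most of whose sum is Il2rb, summed to 600.9 to 680.01 CPM in CTL and 535.5 to 600.4 CPM in Prdm1-CKO mice, and their part in the Trbv29 level was not tested.

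In CPM, 5 further Trb genes with a mean level of at least 5 CPM had every Prdm1-CKO mouse below every CTL mouse, which 3.86% of all tested genes also had. Trbv4 was at 6.37, 6.28 and 13.6 CPM in CTL and 2.82, 4.37 and 5.62 CPM in Prdm1-CKO mice (log2 fold change −1.03 ± 0.49, and −0.56 without CTL mouse 3). Trbv15 was at 29.8, 39.4 and 31.4 CPM in CTL and 23.8, 25.1 and 26.6 CPM in Prdm1-CKO mice (log2 fold change −0.41 ± 0.21). Trbv13-2 was at 58.4, 65.3 and 64.2 CPM in CTL and 58.0, 51.2 and 58.1 CPM in Prdm1-CKO mice, where the gap between the groups was small. The joining segments Trbj1-3 and Trbj2-4 were the others. With Trbv29 this made 6 of the 40 tested Trb genes, and the adjusted p was 0.996 for each (edgeR). As shares of the Trbv counts the groups were apart in Trbv29 and Trbv4, while Trbv15 and Trbv13-2 overlapped. In the other direction, 4.56% of all tested genes had every Prdm1-CKO mouse above every CTL mouse and no tested Trb gene had. The untested pseudogene Trbv12-3 had no count in CTL and 2, 4 and 1 in the Prdm1-CKO group (0.113, 0.407 and 0.0685 CPM). A count of 0 allows up to 0.206, 0.355 and 0.444 CPM in CTL mice 1 to 3. Only Prdm1-CKO mouse 2 lay above some of these limits, and it lay below that of CTL mouse 3.

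**Figure D3:**
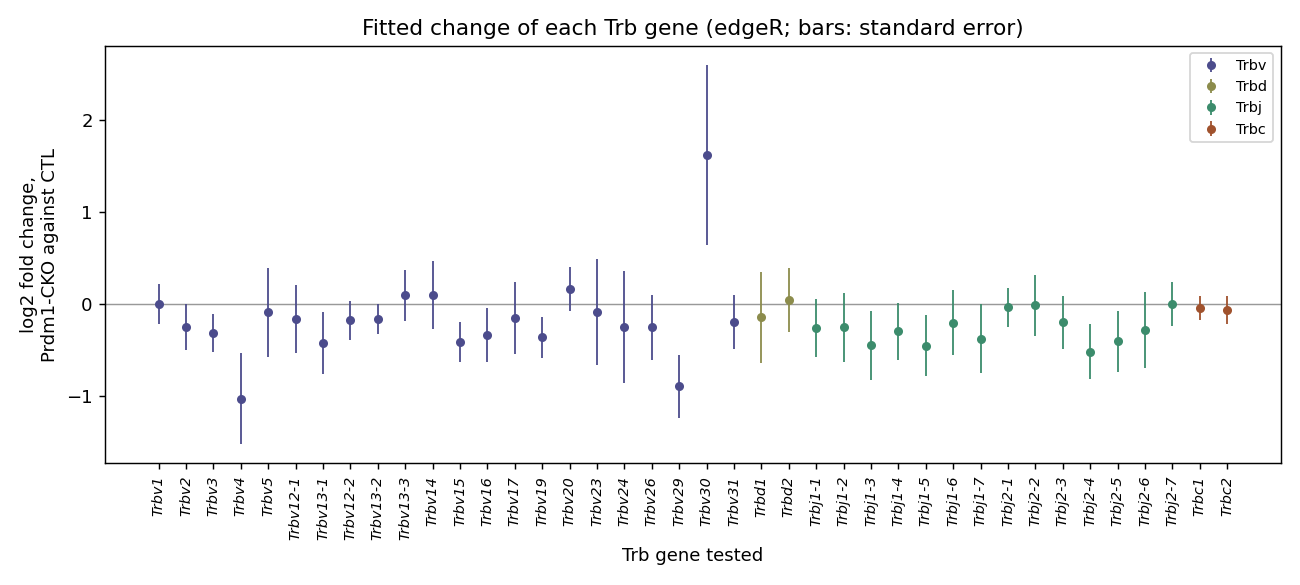
Log2 fold change of Prdm1-CKO against CTL (y axis) for the 40 Trb genes tested (x axis, grouped as Trbv, Trbd, Trbj and Trbc), with bars for the standard error of the edgeR fit (3 mice a group). Most points lie below 0, with Trbv4 and Trbv29 lowest and Trbv30, which rests on Prdm1-CKO mouse 1, highest.

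Small differences leaned to one side. Of the 40 tested Trb genes 6 had a log2 fold change above 0, and their median was −0.20, beside 0.01 over all tested genes. By class, 5 of 22 Trbv genes, 1 of 2 Trbd segments, 0 of 14 Trbj segments and 0 of 2 Trbc genes were above 0, and the medians were −0.19, −0.05, −0.28 and −0.05. Scaled to the summed Trbv counts instead of to all genes, 21 of 40 were above 0 and the median was 0.00463, while the median over all genes moved to 0.22. That scaling centres the Trb genes near 0 by its construction and is no separate evidence on their use. The lean also depended on single mice, as 14 of 40 were above 0 and the median was −0.13 without CTL mouse 3, while the median was −0.31 without CTL mouse 1. The levels of Trb genes come from the same messages and are not independent of each other.

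The summed Trbv level leaned the same way. It was 525, 533 and 648 CPM in CTL and 489.6, 469 and 505 CPM in Prdm1-CKO mice, with means of 568 ± 68.8 and 488 ± 17.6 (SD, n = 3 each). The groups did not overlap, the lowest CTL mouse being at 524.6 and the highest Prdm1-CKO mouse at 504.6 CPM. Per 100 counts of Trac, Cd3d, Cd3e, Cd3g and Cd247, which encode the alpha chain and the CD3 subunits of the receptor, Trbv counts were 17.4, 17.2 and 18.2 in CTL and 15.4, 15.0 and 16.1 in Prdm1-CKO mice. In a bulk sample, fewer cells of a type and less RNA per cell cannot be told apart. Why Trbv counts were lower relative to those receptor genes was not tested. The ratio of Prdm1-CKO to CTL means was 0.858 for summed Trbv, 0.848 for summed Trbj and 0.963 for summed Trbc. For summed Trbv this is a log2 ratio of −0.22, which was −0.12 without CTL mouse 3. The summed Trbj level overlapped between groups, at 190.3, 202 and 218 CPM in CTL and 168, 159 and 190.7 CPM in Prdm1-CKO mice. So did the summed Trbc level, and why its ratio differed from those of Trbv and Trbj was not tested.

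**Figure D4:**
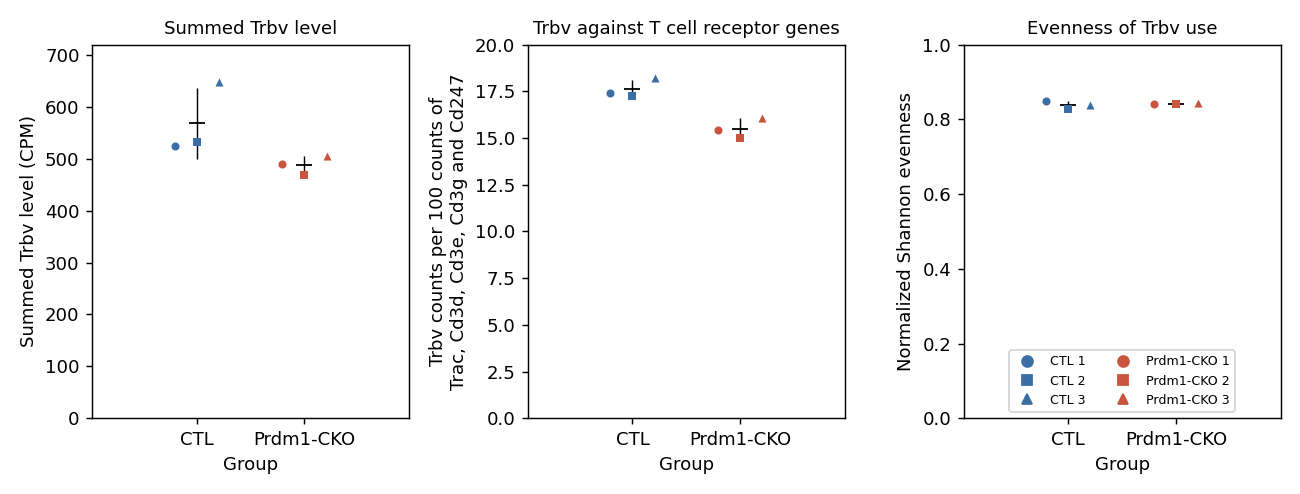
Summed Trbv level (CPM, left), Trbv counts per 100 counts of Trac, Cd3d, Cd3e, Cd3g and Cd247 (middle) and normalized Shannon evenness of Trbv use (right), with 1 point per mouse, a tick for the group mean and a bar of 1 SD (n = 3). The Prdm1-CKO mice lie below the CTL mice in the left and middle plots and within the CTL range of 0.826 to 0.848 in the right one.

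The partners of the beta chain at the cell surface were compared in the same fit. Among Trac, Cd3d, Cd3e, Cd3g, Cd247 and Cd4, 1 gene was lower at an unadjusted p under 0.05 and none was higher. This was the coreceptor Cd4, at 896, 1061 and 1031 CPM in CTL and 823, 774 and 847 CPM in Prdm1-CKO mice (log2 fold change −0.29 ± 0.12, adjusted p = 0.996, edgeR). Trac was at 924, 938 and 1058 CPM in CTL and 944, 996 and 937 CPM in Prdm1-CKO mice. Cd3e was at 561, 642 and 786 CPM and at 639.8, 542 and 671 CPM, Cd3d at 496, 511 and 577 CPM and at 499, 543 and 494 CPM. Those genes overlapped between groups, as did Cd3g (549 to 643 CPM against 572 to 651 CPM) and Cd247 (448 to 496 CPM against 429 to 464 CPM).

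Markers of other cells were read beside these levels, and their part in the Trb levels was not tested. The sort did not exclude cells with FOXP3, which marks regulatory T cells, so the Trb counts can include theirs. Foxp3 was at 173, 176 and 171 CPM in CTL and 182, 134 and 155 CPM in Prdm1-CKO mice. The 5 regulatory T cell genes listed summed to 856 to 951 CPM in CTL and 770 to 880 CPM in Prdm1-CKO mice. Among 7 CD8 and NK genes, Cd8a (1.23, 4.98 and 2.07 CPM in CTL, 0.789, 0.813 and 0.411 CPM in Prdm1-CKO mice) and Gzma (27.0, 62.3 and 37.7 CPM, then 17.2, 18.4 and 21.7 CPM) were lower at an unadjusted p under 0.05. Cd8b1, which encodes the other CD8 chain, was at 10.0018, 13.7 and 10.7 CPM in CTL and 14.7, 14.6 and 17.1 CPM in Prdm1-CKO mice, higher in each of the latter, and Eomes overlapped at 5.69 to 21.2 CPM and 13.7 to 26.2 CPM. The CD8 and NK genes summed to 119 to 176 CPM in CTL and 86.7 to 140.0 CPM in Prdm1-CKO mice. Higher at that threshold, each at an adjusted p of 0.996 (edgeR), were the antibody joining chain Jchain, at 383, 254 and 382 CPM in CTL and 363, 549 and 636 CPM in Prdm1-CKO mice, and the complement gene C1qc, at 8.84, 5.45 and 28.9998 CPM and at 29.9, 36.8 and 53.6 CPM. So were 3 globin genes. Hba-a1 was at 2.33, 2.37 and 2.96 CPM in CTL and 7.44, 2.85 and 8.35 CPM in Prdm1-CKO mice, Hbb-bs at 3.49, 3.55 and 9.77 CPM and at 32.2, 7.12 and 21.8 CPM, and Hbb-bt at 0.754, 0.474 and 0.888 CPM and at 3.61, 0.813 and 2.74 CPM. Of these 5 genes C1qc was the one without overlap between groups, and its gap was small. All other genes of the macrophage list overlapped. C1qa was at 2.84 to 55.2 CPM in CTL and 39.0 to 43.8 CPM in Prdm1-CKO mice. C1qb was at 23.9 to 73.0 CPM in CTL and 56.2 to 65.3 CPM in Prdm1-CKO mice. Summed plasma cell markers, the largest part of them Jchain, were at 482 to 734.5 CPM in CTL and 734.9 to 941 CPM in Prdm1-CKO mice, in the direction opposite to the summed Trbv level and with almost no gap, and of the 6 genes all but Mzb1 overlapped between groups. Summed B cell markers were at 104 to 181 CPM in CTL and 156 to 243 CPM in Prdm1-CKO mice. All 10 B cell genes had a log2 fold change above 0, with a median of 0.83, opposite to the summed Trbv level. Cd79b, Pax5 and Cr2 were higher in every Prdm1-CKO mouse, the others overlapped, and none passed an unadjusted p of 0.05 (edgeR). Summed erythroid markers were at 6.40 to 17.6 CPM in CTL and 11.7 to 46.9 CPM in Prdm1-CKO mice.

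The segments are joined in the thymus, where Rag1 and Rag2 encode the enzyme that cuts the DNA. Rag1, Rag2 and Ptcra, the last encoding the surrogate alpha chain of the developing receptor, had 0 counts in all 6 mice. The repair genes that also serve other DNA breaks were expressed, among them Prkdc at 52.9 to 103 CPM, Xrcc5 at 58.97 to 78.0 CPM and Xrcc6 at 59.99 to 97.9 CPM over the 6 mice. Of the 12 recombination genes, 10 were tested and none passed an unadjusted p of 0.05 in either direction. Dntt, which adds untemplated bases at the junctions, was at 2.67, 0.355 and 0.592 CPM in CTL and 3.04, 3.56 and 2.397 CPM in Prdm1-CKO mice. Between the outermost Trb genes lie 28 further annotated genes, several of them trypsinogen genes, of which 11 had a count and 3 were tested. Prss2, a trypsinogen, was at 0.474 to 3.29 CPM over the 6 mice and Gm2663, the neighbour with the most counts, was at 2.33, 0 and 6.95 CPM in CTL and 8.56, 3.46 and 1.92 CPM in Prdm1-CKO mice. The 28 genes summed to 2.13 to 12.002 CPM in a mouse, below the summed Trbv, Trbj or Trbc level of each mouse but in the range of single Trbj1 and Trbd segments.

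Joining segments hold the motif that closes the CDR3 loop, a phenylalanine and glycine, any residue and another glycine. All 14 are shown 5′ to 3′ on the plus strand from the GENCODE M21 transcripts, because their use and their coding capacity differ. Capitals mark the letters TTNGGNNNNGGN that encode the motif. They were searched on both strands and found on the plus strand of 11 of 14 segments, not in Trbj1-6, Trbj1-7 or Trbj2-6, and on the minus strand of none. Of 141621 other transcripts, 2.06% held the letters on either strand in their first 50 bases.
Trbj1-1 (chr6:41533864-41533911): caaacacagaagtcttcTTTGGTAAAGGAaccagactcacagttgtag
Trbj1-2 (chr6:41534001-41534048): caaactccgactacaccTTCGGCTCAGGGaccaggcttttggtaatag
Trbj1-3 (chr6:41534323-41534372): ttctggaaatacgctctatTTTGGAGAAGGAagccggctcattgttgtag
Trbj1-4 (chr6:41534811-41534861): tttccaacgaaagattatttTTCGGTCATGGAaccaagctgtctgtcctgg
Trbj1-5 (chr6:41535084-41535133): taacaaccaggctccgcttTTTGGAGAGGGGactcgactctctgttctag
Trbj1-6 (chr6:41535554-41535606): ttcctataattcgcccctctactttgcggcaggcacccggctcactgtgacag
Trbj1-7 (chr6:41535642-41535687): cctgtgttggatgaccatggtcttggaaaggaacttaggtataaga
Trbj2-1 (chr6:41542754-41542803): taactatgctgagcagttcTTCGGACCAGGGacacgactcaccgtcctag
Trbj2-2 (chr6:41542957-41543007): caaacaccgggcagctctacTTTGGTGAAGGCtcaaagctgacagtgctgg
Trbj2-3 (chr6:41543223-41543271): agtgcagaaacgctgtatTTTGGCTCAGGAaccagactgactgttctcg
Trbj2-4 (chr6:41543362-41543410): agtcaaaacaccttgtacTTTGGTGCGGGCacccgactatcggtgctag
Trbj2-5 (chr6:41543453-41543501): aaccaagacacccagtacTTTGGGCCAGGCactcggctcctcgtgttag
Trbj2-6 (chr6:41543598-41543645): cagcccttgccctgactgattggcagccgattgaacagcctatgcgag
Trbj2-7 (chr6:41543810-41543856): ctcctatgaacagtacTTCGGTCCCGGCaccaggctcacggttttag
Of the segments without these letters, Trbj2-6 is annotated as a pseudogene and the other two are not.

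Use of the 14 segments was uneven, and the Trbj2 cluster held the larger part. It made up 63.6%, 53.6% and 67.9% of the Trbj counts in CTL and 68.9%, 65.5% and 59.3% in Prdm1-CKO mice, with 95% Wilson intervals no wider than 65.5% to 70.2% in CTL mouse 3. The means were 61.7% ± 7.34 and 64.5% ± 4.83 (SD, n = 3 each). The mice differed beyond counting error within each group, and the groups overlapped.

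Trbj2-7 was the most used segment in every mouse, at 17.8%, 13.9% and 15.2% of the Trbj counts in CTL and 23.4%, 15.9% and 15.9% in Prdm1-CKO mice. Its highest value was again in Prdm1-CKO mouse 1. Trbj2-1 held 12.8%, 10.9% and 12.6% in CTL and 14.5%, 14.0% and 13.3% in Prdm1-CKO mice. It was the 1 segment of 14 whose share was higher in every Prdm1-CKO mouse, although its CPM overlapped between groups. In CPM, 4.56% of all tested genes had every Prdm1-CKO mouse above every CTL mouse. Trbj2-5 held 10.8%, 6.32% and 12.7% in CTL and 8.04%, 8.94% and 9.52% in Prdm1-CKO mice. Trbj2-4 held 7.96%, 8.25% and 12.6% in CTL and 8.67%, 8.81% and 6.64% in Prdm1-CKO mice, and CTL mouse 3 set its CTL mean apart. In CPM, Trbj2-4 was at 15.1, 16.7 and 27.5 in CTL and 14.6, 14.0 and 12.7 in Prdm1-CKO mice (log2 fold change −0.52 ± 0.30, and −0.20 without CTL mouse 3).

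The remaining Trbj2 segments held smaller mean shares over the 6 mice, although Trbj2-3 lay above Trbj2-5 in CTL mouse 2. Trbj2-3 held 5.83%, 8.07% and 6.17% in CTL and 6.66%, 7.92% and 6.14% in Prdm1-CKO mice. Trbj2-2 held 5.04%, 3.74% and 5.02% in CTL and 4.76%, 6.96% and 4.60% in Prdm1-CKO mice. Trbj2-6, the pseudogene, was lowest of the 14 on average, at 3.38%, 2.34% and 3.60% in CTL and 2.81%, 2.94% and 3.23% in Prdm1-CKO mice. It was the lowest segment in 5 mice and tied with Trbj1-3 in CTL mouse 3, but it was not near 0.

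Within the Trbj1 cluster the segments lay close together. Trbj1-5 held 6.66%, 8.25% and 5.97% in CTL and 4.66%, 5.68% and 7.32% in Prdm1-CKO mice. Trbj1-1 held 6.01%, 6.85% and 5.02% in CTL and 5.12%, 5.56% and 6.64% in Prdm1-CKO mice. Trbj1-7 held 5.44%, 7.90% and 4.27% in CTL and 4.35%, 4.79% and 6.54% in Prdm1-CKO mice. Trbj1-7, which lacks the motif letters, was counted about as often as the other segments of its cluster. Trbj1-4 was at 5.40%, 6.85% and 4.41% in CTL and 5.73%, 5.56% and 4.70% in Prdm1-CKO mice. Trbj1-6 was at 4.54%, 5.15% and 4.95% in CTL and 4.35%, 4.28% and 6.14% in Prdm1-CKO mice. None of these shares separated the groups. Trbj1-3 was at 4.18%, 6.26% and 3.60% in CTL and 3.38%, 4.73% and 3.99% in Prdm1-CKO mice, and at 7.95, 12.7 and 7.84 CPM in CTL and 5.69, 7.52 and 7.60 CPM in Prdm1-CKO mice (log2 fold change −0.45 ± 0.37, and −0.20 without CTL mouse 2). Trbj1-2 was at 4.21%, 5.15% and 3.87% in CTL and 3.55%, 3.96% and 5.35% in Prdm1-CKO mice.

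**Figure D5:**
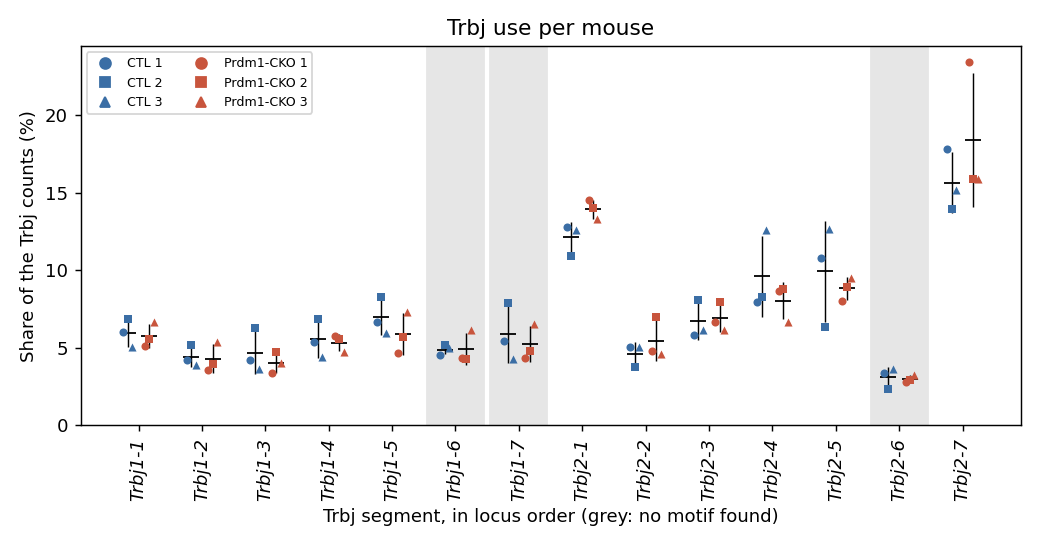
Share of the Trbj counts (%, y axis) of the 14 Trbj segments in locus order (x axis), with 1 point per mouse, a tick for the group mean and a bar of 1 SD (n = 3), and grey bands for segments in which the motif letters were not found. Trbj2-7 and Trbj2-1 are the most used, and the banded Trbj1-6, Trbj1-7 and Trbj2-6 hold counts in every mouse.

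The 3 segments without the motif letters held 11.5% to 15.9% of the Trbj counts, and Trbj1-7 with Trbj2-6 held 7.17% to 10.2%. A beta chain built with Trbj1-7 or Trbj2-6 lacks the usual end of CDR3, and RNA that is unspliced or not rearranged also covers these segments. Which kind of RNA gave these counts was not tested, so Trbj shares here are shares of counts over the segment and not of joined receptors. Per kilobase, the Trbj segments summed to 3237 to 4439 CPM in a mouse, the Trbv genes to 1188 to 1609 CPM and the Trbc genes to 1541 to 1952 CPM. If a read that overlaps a segment by a single base is counted, short segments gain positions. Per kilobase of positions at which a 25-base read can overlap, the sums were 2175 to 2981 CPM for Trbj, 1119 to 1517 CPM for Trbv and 1491 to 1888 CPM for Trbc, so the Trbj sum was still the highest in each mouse.

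The diversity segments are shorter than a read, and their sequences are shown on the plus strand because a count on them needs flanking bases.
Trbd1 (chr6:41533201-41533212): gggacagggggc
Trbd2 (chr6:41542163-41542176): gggactgggggggc
They had 78 to 232 counts together in a mouse. Trbd1 was at 3.49, 2.96 and 3.26 CPM in CTL and 3.78, 2.24 and 2.74 CPM in Prdm1-CKO mice. Trbd2 was at 10.1, 6.28 and 8.73 CPM in CTL and 9.30, 8.44 and 8.15 CPM in Prdm1-CKO mice, above Trbd1 in each mouse. Both overlapped between groups, with log2 fold changes of −0.15 ± 0.50 and 0.04 ± 0.35.

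The constant genes anchor the chain in the membrane and were the most abundant transcripts of the locus. Their coding sequences are nearly the same, with 19 differences in 500 aligned bases of the first 3 exons (96.2% identity), of which 1 lies in the 375 bases of exon 1 and 15 in the 107 bases of exon 3. The first 60 bases of exon 3 on the plus strand are shown with the differing bases in capitals, since a read can tell the genes apart there and hardly in exon 1.
Trbc1 (chr6:41539229-41539288): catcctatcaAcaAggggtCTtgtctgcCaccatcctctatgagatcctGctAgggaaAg
Trbc2 (chr6:41547772-41547831): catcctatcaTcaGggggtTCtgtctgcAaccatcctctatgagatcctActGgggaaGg
Of the 25-base stretches of the annotated transcripts, 53.9% were unique to Trbc1 and 50.1% to Trbc2.

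Trbc1 was at 553, 567 and 645 CPM in CTL and 520.1, 622 and 568 CPM in Prdm1-CKO mice, and Trbc2 at 609, 543 and 754 CPM in CTL and 587, 642 and 596 CPM in Prdm1-CKO mice. The log2 fold changes were −0.05 ± 0.13 and −0.06 ± 0.15 (adjusted p = 0.996 for each, edgeR), and the groups overlapped for both. Trbc1 made up 47.6%, 51.1% and 46.1% of the Trbc counts in CTL and 47.0%, 49.2% and 48.8% in Prdm1-CKO mice, or 48.3% ± 2.57 and 48.3% ± 1.17 (SD, n = 3 each). The counts of both genes were close to equal in each mouse, but how reads that match both were counted is not given in the sources used here, and dividing such reads between the genes would bring the share closer to 50%. The Trbc1 share is therefore a share of counts, and it was not set against the Trbj1 share.

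The classes also differed in how much the mice varied. The median coefficient of variation of CPM over the 6 mice was 24.8% for the 22 tested Trbv genes, 21.9% for the 14 Trbj segments and 9.80% for the 2 Trbc genes, beside 29.6% for the 9261 genes tested within the range of Trbv levels. Counting error alone would give 3.77% for Trbv13-2 and 14.3% for Trbv30, where 8.57% and 135% were measured. Trbv13-2 was the steadiest of the tested Trbv genes and Trbv30 the most variable.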

How the data were processed

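The deposited files hold whole-number read counts per gene for each of the 6 mice. Per the labels and the study's methods the authors made them from 50 ng of RNA with Smart-seq2, which does not mark strand, read 2 x 25 bases, aligned reads to GRCm38 and counted them with featureCounts. The submitters' processing notes name STAR 2.4.2a, DESeq2 and GRCm38.p6. Whether reads with several matches were counted is not given in the sources used here.

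Gene IDs were matched to GENCODE M21, and all 53 Trb genes kept the same ID version. The sources name no separate batches, and mice were separate animals. Counts were tested with edgeR 4.0.16 (quasi-likelihood, TMM, filterByExpr, Benjamini-Hochberg over 14555 genes) in R 4.3.3, with DESeq2 1.42.0 as an alternative. On simulated counts for this comparison over 14555 genes, 92.5% of 200 genes changed 8-fold were recovered. Shares, evenness and distances were computed from the counts without a test (Python, SciPy), with 95% Wilson intervals that cover counting error only. A 25-base stretch was unique if no other GENCODE M21 transcript held it on either strand.

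Values per mouse were printed for the 10 Trbv genes with the largest mean share, Trb genes at unadjusted p under 0.05 or not overlapping between groups at a mean of at least 5 CPM, Trbj and Trbc genes with at least 100 counts in all, and listed genes at unadjusted p under 0.05. The members and lists were chosen with earlier results of these data known. Alternatives were other size factors, filters and scalings, a replicate block and leaving out each mouse.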

Additional observations from a re-analysis of the deposited data

How the results depend on the processing

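No Trb gene passed an adjusted p of 0.05 and none was higher at an unadjusted p under 0.05 under any of the 12 alternatives, among them DESeq2's size factors and test, other filters, the replicate block, scaling to the Trbv counts and leaving out each mouse. The 1 Trb gene lower at an unadjusted p under 0.05 became 0 without a filter on low counts (1.96% of all genes lower), 2 with at least 10 counts in every mouse (1.77%), 0 when scaled to the summed Trbv counts (0.46%) and 0 to 4 with 1 mouse left out (0.724% to 3.94%), with 4 without CTL mouse 2 (0.879%). Mice with the same replicate number are not paired by design, and residuals of same-numbered mice correlated at 0.158, 0.028 and 0.016 against −0.033 for other pairs. With the replicate block 1 Trb gene was lower, Trbv29, at a log2 fold change of −0.92.

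Scaling to the summed Trbv counts moved the median of all genes from 0.01 to 0.22, and through that shift alone the median log2 fold change of the Trb genes changed sign to 0.00463, as did Trbv13-2 (0.043), Trbc1 (0.17) and Trbc2 (0.16), which says nothing about their stability. With 1 mouse left out, Trbc1 ranged from −0.11 (without Prdm1-CKO mouse 2) to 0.031 (without CTL mouse 3), Trbc2 from −0.18 (without CTL mouse 2) to 0.086 (without CTL mouse 3) and Trbv30 from −0.26 (without Prdm1-CKO mouse 1) to 2.26 (without CTL mouse 1), and the cause was not tested. Trbv29, Trbv4, Trbv15, Trbv3, Trbj1-3 and Trbj2-4 kept their direction under every alternative run for them, but without CTL mouse 3 Trbv4 moved to −0.56, Trbv3 from −0.32 to −0.15 and Trbj2-4 to −0.20, and without CTL mouse 2 Trbj1-3 moved to −0.20. Per unique 25-base position, an alternative chosen after seeing the data, the Trbv4 share differed by −2.13 percentage points in place of −0.62. That scale also raised its mean share over all mice from 1.19% to 4.06%, so the point differences are not on the same base. It treats all Trbv4 counts as coming from unique positions, which is not known.

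With 1 mouse left out, the Prdm1-CKO minus CTL difference ranged from −0.002 to 0.009 in evenness, from −1.20 to 5.96 points in the Trbj2 share, from −1.04 to 1.47 points in the Trbc1 share and from −0.28 (without CTL mouse 1) to −0.12 (without CTL mouse 3) in the log2 ratio of the summed Trbv level, which was −0.22 with all mice. Between-group minus within-group distance stayed between −0.010 and −0.002. The simulation covered 8-fold changes only. Whether small shifts in use of rare Trbv genes could be found with 3 mice a group was not tested.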
